A study of Mus musculus with 12 samples.

Results

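The 33 genes described here are mitotic genes of the G2/M part of the cell cycle, a list of names read out of the deposited table of 38293 gene identifiers. All 33 were in the table, and all 33 passed the filter on low counts that left 13964 genes for testing. They were measured in 12 libraries of polyA RNA from heart ventricles of E15.5 mouse embryos. Each of the 4 genotypes had 3 libraries, and each library came from a pool of 4 pairs of ventricles. The wild-type embryos (WT) carried no engineered allele in the labels. The triple heterozygote carried on 1 chromosome copy each the Mib1 R530X stop allele, a missense allele of Asxl3 and the missense allele V150I of Apcdd1. The Asxl3 allele is M1415V in the genotype label and M1361V in the series' design text. The Cre control was Mib1 flox/+ with Tnnt2-Cre/+, and the Mib1 mutant was Mib1 R530X/flox with Tnnt2-Cre/+. Tnnt2-Cre recombines loxP sites in cardiomyocytes, so both of these groups carry the driver and a loxP-flanked allele. In the Mib1 mutant the stop allele is in every cell and the second copy is removed in cardiomyocytes. In the Cre control 1 Mib1 copy is loxP-flanked and so is also open to removal in cardiomyocytes. Mib1 encodes a ubiquitin ligase that cells presenting Notch ligands need. Whether the pools of a genotype came from separate litters is not stated, and p-values measure the spread between these pools.

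Cells enter mitosis when cyclin B and CDK1 form an active kinase, helped by PLK1 and the aurora kinases. They leave it when the anaphase-promoting complex (APC/C), with its activator CDC20, marks cyclin B and securin for destruction. Most of these genes are transcribed late in the cell cycle under FOXM1 and B-MYB and are shut off in resting cells by the DREAM complex. Cardiomyocytes of the fetal ventricle still divide, and they leave the cycle around birth, so these transcripts are widely read as a measure of growth of the ventricular wall. In RNA from whole ventricles, fewer cycling cells and less RNA per cycling cell cannot be told apart.

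The promoters of these genes carry 2 short sequences that are background to their shared timing. The CCAAT box (CCAAT, or ATTGG on the other strand) is bound by NF-Y. The cell cycle genes homology region (CHR, TTTGAA, or TTCAAA on the other strand) is bound by the DREAM and B-MYB complexes. RefSeq windows on GRCm38.p6, from 250 bases before to 50 bases after the annotated start, were at hand for 27 of the 33 genes, in 29 windows. Not matched were Ccna2, Aurkb, Kif20a, Tpx2, Pbk and Foxm1. A CCAAT box on either strand was found in 86.2% of the 29 windows, against 37.4% of all 32851 windows in the table and 37.6% of windows of the tested genes. A CHR on either strand was found in 79.3%, against 17.9% of all windows and 12% of windows of the tested genes. Both motifs stood in 72.4% of the windows and in 6.95% of all windows. At least 2 CCAAT boxes were in 62.1%, against 11.7%. A CHR within 50 bases of the start was in 72.4%, against 4.94%. TTTAAA, which differs from the CHR by 1 letter, was in 27.6%, against 13.2%. A CCAAT box overlapped a CHR in 1 window of these genes, that of Cdca8, where a CHR at 14 to 19 after the start and a CCAAT box at 19 to 23 on the other strand share 1 base. These matches describe letters in a window and were not tested as binding sites.

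The 8 promoters below are shown because they belong to the cyclin B and CDK1 pair, the APC/C genes, the kinases and Mki67, whose values follow. Each line holds the 200 bases before the annotated start, 5′ to 3′ on the gene's strand, from the RefSeq table on GRCm38.p6. Capitals mark CCAAT boxes and TTTGAA elements on either strand. The windows are chr13:100786487-100786686 (minus strand) for Ccnb1, chr9:70421555-70421754 (minus) for Ccnb2 and chr10:69352913-69353112 (minus) for Cdk1. For the APC/C genes they are chr4:118437344-118437543 (minus) for Cdc20 and chr2:164769729-164769928 (plus) for Ube2c. For the others they are chr2:172370571-172370770 (minus) for Aurka, chr7:122159235-122159434 (plus) for Plk1 and chr7:135716380-135716579 (minus) for Mki67.
Ccnb1: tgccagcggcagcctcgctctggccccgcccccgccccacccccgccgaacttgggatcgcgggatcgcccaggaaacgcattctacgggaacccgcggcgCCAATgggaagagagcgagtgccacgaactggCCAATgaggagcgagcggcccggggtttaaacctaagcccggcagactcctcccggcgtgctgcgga
Ccnb2: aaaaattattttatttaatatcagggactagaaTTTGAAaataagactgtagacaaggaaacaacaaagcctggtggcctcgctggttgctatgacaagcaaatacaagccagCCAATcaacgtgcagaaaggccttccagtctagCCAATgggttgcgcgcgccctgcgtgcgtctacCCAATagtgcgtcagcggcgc
Cdk1: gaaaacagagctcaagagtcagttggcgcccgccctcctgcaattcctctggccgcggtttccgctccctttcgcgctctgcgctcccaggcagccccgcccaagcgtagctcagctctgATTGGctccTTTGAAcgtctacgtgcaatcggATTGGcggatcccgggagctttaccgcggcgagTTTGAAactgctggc
Cdc20: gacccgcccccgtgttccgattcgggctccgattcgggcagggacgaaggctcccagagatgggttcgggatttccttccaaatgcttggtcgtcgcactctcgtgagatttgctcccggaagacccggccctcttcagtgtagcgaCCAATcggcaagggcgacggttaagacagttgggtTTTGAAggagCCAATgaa
Ube2c: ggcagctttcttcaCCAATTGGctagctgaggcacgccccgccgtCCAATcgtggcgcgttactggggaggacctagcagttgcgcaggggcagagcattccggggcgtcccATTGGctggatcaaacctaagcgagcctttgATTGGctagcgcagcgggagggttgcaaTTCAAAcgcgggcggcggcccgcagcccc
Aurka: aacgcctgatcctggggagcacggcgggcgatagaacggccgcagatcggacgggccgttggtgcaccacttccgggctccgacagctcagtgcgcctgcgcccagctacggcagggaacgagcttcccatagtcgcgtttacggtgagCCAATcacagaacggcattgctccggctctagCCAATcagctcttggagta
Plk1: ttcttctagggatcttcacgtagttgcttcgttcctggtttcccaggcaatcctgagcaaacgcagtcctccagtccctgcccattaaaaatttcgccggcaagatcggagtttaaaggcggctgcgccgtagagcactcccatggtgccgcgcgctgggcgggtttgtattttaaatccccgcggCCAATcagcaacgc
Mki67: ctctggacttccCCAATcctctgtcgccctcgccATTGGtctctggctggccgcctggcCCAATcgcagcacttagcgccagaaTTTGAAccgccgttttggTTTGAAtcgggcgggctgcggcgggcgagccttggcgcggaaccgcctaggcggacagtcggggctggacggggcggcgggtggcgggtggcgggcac

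In 5 of these promoters CCAAT boxes on the same strand repeated at 31 to 33 bases from first letter to first letter. The distance was 32 bases in Ccnb1, Cdk1 and Aurka, 33 bases in both steps of Ccnb2, and 31 bases in 2 of the steps of Ube2c. Cdk1 had CHRs at positions -71 to -66 and -15 to -10 relative to the start, Cdc20 at -18 to -13 and Ube2c at -29 to -24 on the other strand. Mki67 had its pair farther from the start, at -116 to -111 and -98 to -93. In Ccnb2, Aurka and Plk1 a CHR lay after the start, at 5 to 10, 33 to 38 and 31 to 36, outside the bases printed. Ccnb2 also had a CHR at -167 to -162, farther from the start than the Mki67 pair. Ccnb1 had no TTTGAA in its window and held TTTAAA at -42 to -37. Plk1 held TTTAAA at -89 to -84 and at -29 to -24. In Ube2c a pair of CCAAT boxes on opposite strands shared letters, at -186 to -182 and -183 to -179. Birc5, the survivin of the chromosomal passenger complex, and Nusap1, a spindle microtubule protein, had neither motif in this window. The 4 genes without a CCAAT box were Anln, Birc5, Kif2c and Nusap1, and the 6 without a CHR were Birc5, Bub1, Ccnb1, Cenpe, Nek2 and Nusap1. Windows of 48 other mitotic genes held a CHR in 58.2% of cases and a CCAAT box in 65.5%. Windows of 28 genes of the G1/S transition and DNA replication held them in 11.8% and 61.8%.

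**Figure D1:**
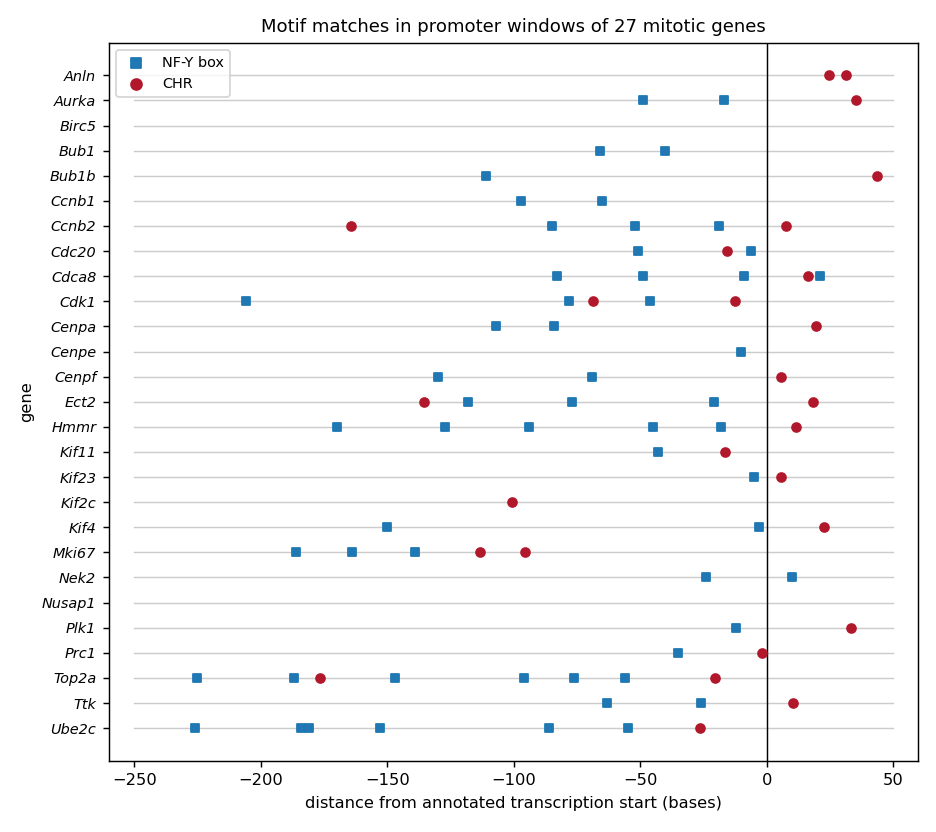
Positions of CCAAT boxes (blue squares, labelled NF-Y box) and CHRs (red circles) on either strand in 1 RefSeq window of each of 27 mitotic genes. The x axis is the distance in bases from the annotated transcription start; 23 genes have at least 1 CCAAT box, mostly before the start, and 21 have at least 1 CHR, mostly close to it.

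Between 10103548 and 22157720 estimated reads fell in genes in each library, and 1 read was worth 0.0452 to 0.0991 CPM (reads scaled to a common library size with TMM). The 33 genes took 0.377% to 0.428% of the reads, with 235 (Ttk) to 9077 (Top2a) reads for a gene in a pool. Mib1, the targeted gene, stood at 145, 126 and 136 CPM in WT, 74, 57.9 and 74.1 in the triple heterozygote, 108, 107 and 101 in the Cre control and 54.8, 50.1 and 51.8 in the Mib1 mutant. Against their own controls it fell by 1.01 (SE 0.09) on the log2 scale in the Mib1 mutant and by 0.99 (SE 0.09) in the triple heterozygote, with edgeR adjusted p of 4.74e-05 and 0.000276. Asxl3 and Apcdd1 did not pass in either comparison (edgeR adjusted p 0.141 to 0.964). The smallest was that of Apcdd1 in the Mib1 mutant, where its log2 fold change was 0.56 (SE 0.18) and its pools overlapped. The missense alleles are in the triple heterozygote only, and a missense allele need not alter a transcript level. Xist lay at 71.5 to 458 CPM in 10 pools and near 0 in the first replicates of the Cre control (0.387 CPM) and of the Mib1 mutant (0.095 CPM). Of the ventricle's cell types, the 12 cardiomyocyte markers summed to 42300 to 57700 CPM per pool.

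Every mitotic gene was expressed well above the floor in every pool. Levels of different genes were compared per kilobase of exon, counting all annotated exons of a gene. That length can exceed the length of the transcript made, so the order of genes is approximate. The mean over the 12 pools was highest for Ccna2, the S- and G2-phase cyclin, at 68.2 CPM per kb. Next came Ccnb2 at 49.9, the DNA topoisomerase Top2a at 48.2, the APC/C-specific ubiquitin-conjugating enzyme Ube2c at 45.9 and Mki67 at 40.5. Cdc20 stood at 40.3 and Ccnb1 at 34.7. The kinase genes Plk1, Cdk1 and Aurka were lower, at 28.4, 24.8 and 20 CPM per kb. The lowest were Nek2 at 10.5, the central spindle kinesin Kif23 at 9.36 and the checkpoint kinase Ttk at 5.46. By this measure the genes of the list spanned a range in which cyclins and APC/C genes stood high and Ttk lowest. The pools of a genotype were close to each other. The SD of log2 CPM within genotypes had a median of 0.11 over the 33 genes (0.04 to 0.17), against 0.15 over all tested genes. The 33 genes had mean levels of 26.9 to 434 CPM, while the tested genes include far lower ones, such as Epb42 at 0.79. These medians are therefore not matched for level.

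What spread there was ran through the list as a whole. The mean log2 CPM of the 33 genes was 6.66, 6.54 and 6.57 in WT replicates 1 to 3, 6.72, 6.57 and 6.56 in the triple heterozygote, 6.56, 6.62 and 6.58 in the Cre control and 6.51, 6.65 and 6.65 in the Mib1 mutant. The means of the 4 genotypes were 6.59 ± 0.06, 6.62 ± 0.09, 6.59 ± 0.03 and 6.60 ± 0.08 (SD, n = 3 each). They lay closer together than pools of 1 genotype, but means of 3 pools are expected to vary less than single pools. This closeness is therefore no test of a genotype effect. The highest and the lowest pool of all 12 were triple heterozygote replicate 1 and Mib1 mutant replicate 1. Mib1 mutant replicate 1 was the lowest of its genotype for 24 of the 33 genes and the lowest of all 12 pools for 14. Triple heterozygote replicate 1 was the highest of its genotype for 27 and above the genotype's mean for 32. WT replicate 1 was the highest of its genotype for 24. The median deviation from the genotype's mean was -0.11, 0.09 and 0.06 log2 units in these pools over the 33 genes. Over all genes tested it was -0.0003, -0.0061 and 0.002. Mib1 mutant replicate 1 was also the lowest of the 12 pools in summed cardiomyocyte markers (42300 CPM, against 49900 to 57700 in the others). Its Xist level was near 0, as given above, and its Y-linked genes summed to 220 CPM. Cre control replicate 1, with Xist also near 0 and a Y-linked sum of 228 CPM, had a mean of 6.56. The high pools, triple heterozygote replicate 1 and WT replicate 1, had Xist at 355 and 378 CPM. Cre control replicates 2 and 3, with Xist at 331 and 458 CPM, had means of 6.62 and 6.58. Mib1 mutant replicates 2 and 3, with Xist at 418 and 131 CPM, both had a mean of 6.65. In WT replicates 2 and 3 Xist was at 116 and 71.5 CPM, and in triple heterozygote replicates 2 and 3 at 112 and 106. Their means were 6.54, 6.57, 6.57 and 6.56. The part of the cardiomyocyte markers or of the sex mix in these pool means was not tested. Medians of the fold changes in a fit with a sex covariate are given at the end.

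**Figure D2:**
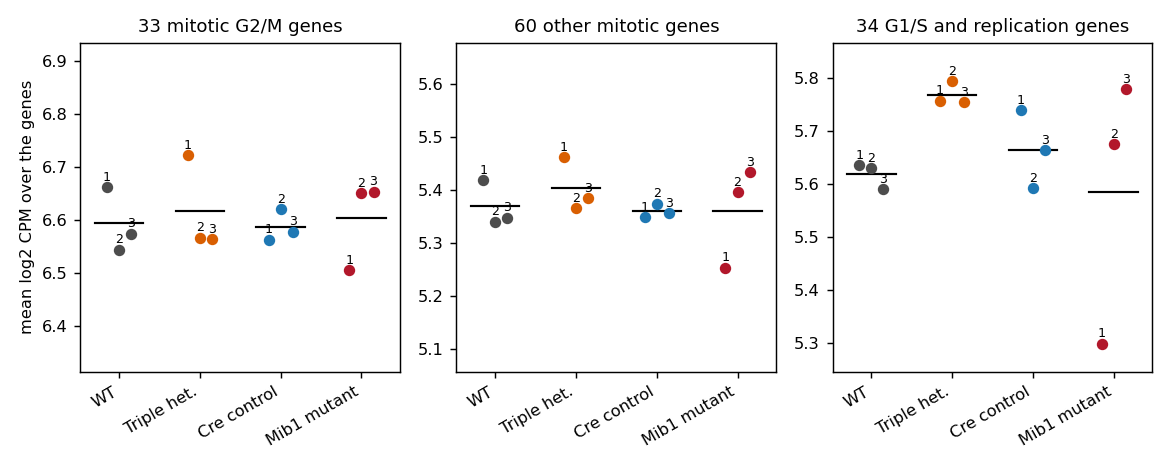
Mean log2 CPM in each pool (points, numbered by replicate) and the mean of 3 pools (bars) for the 33 mitotic genes, 60 other mitotic genes and 34 genes of G1/S and replication, by genotype; the axes span equal log2 distances and do not start at 0. For the 33 genes the bars lie between 6.59 and 6.62, and pools of the Mib1 mutant span 6.51 to 6.65. Bars, as means of 3 pools, are expected to vary less than points.

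**Figure D3:**
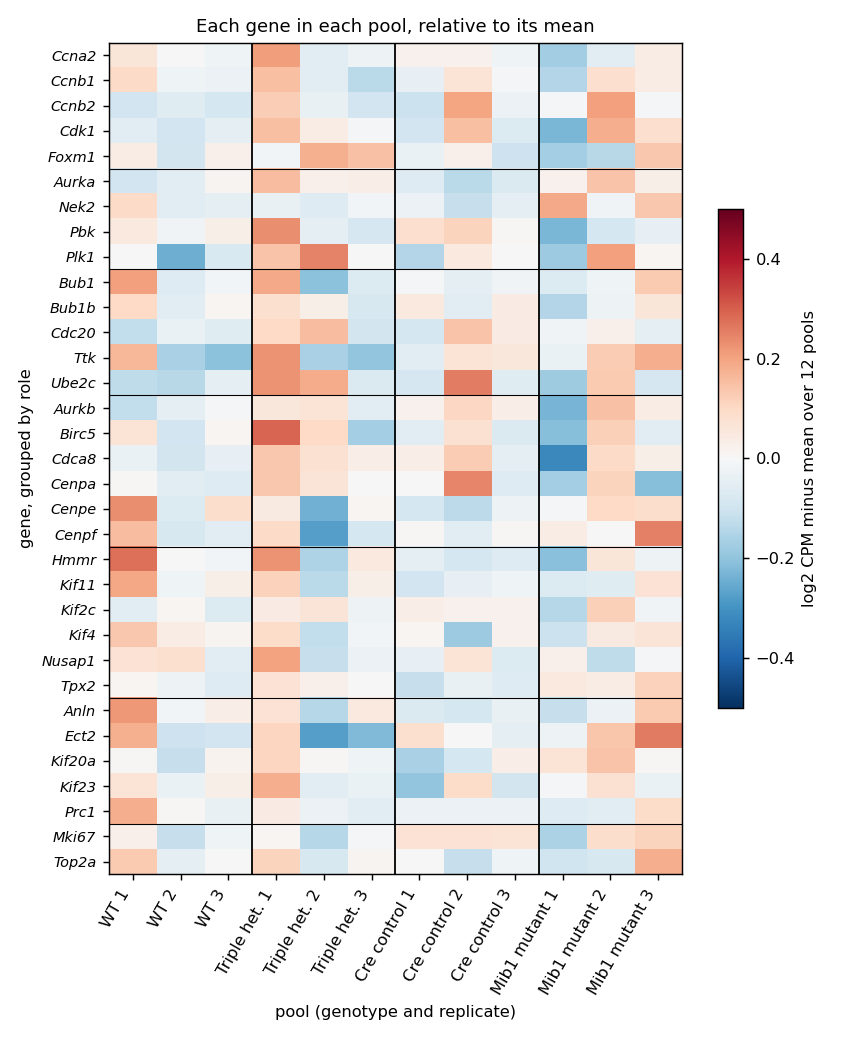
Each of the 33 genes (rows, grouped by role) in each of the 12 pools (columns), as log2 CPM minus the gene's mean over the pools; red is higher and blue lower. The column of Mib1 mutant replicate 1 is blue for most genes and that of triple heterozygote replicate 1 red, while no genotype's 3 columns share a colour throughout.

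The first comparison asks whether loss of Mib1 in cardiomyocytes, with the stop allele elsewhere, went with another level of mitotic transcripts. The Cre control set beside it also carries the driver and 1 loxP-flanked Mib1 copy, so it is not a control with intact Mib1. None of the 33 genes passed the test between Mib1 mutant and Cre control. In the same fit 1.5% of all tested genes passed (210 of 13964). The 19 positive and 14 negative fold changes had a median of 0.025 on the log2 scale, beside 0.0045 over all genes, of which 51.2% were positive. The largest fold changes were 0.17 and -0.18. Every 95% interval lay within a 1.5-fold change in either direction, and the widest reached 1.29-fold lower (Pbk) and 1.27-fold higher (Ect2). The smallest edgeR adjusted p was 0.33. At an unadjusted p under 0.05, 3 of the 33 genes were higher and 0 lower, against 7.34% and 6.65% of all genes. DESeq2 and limma-voom also called 0 of the 33, with 1 and 3 at an unadjusted p under 0.05. Pools of the groups did not overlap for 4 genes on the higher side (Tpx2, Nek2, Aurka and Cenpe) and for 1 on the lower (Pbk), against 8.86% and 7.75% of all genes.

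Among cyclins and their partners, Cdk1 (ENSMUSG00000019942), the kinase that drives entry into mitosis, stood at 114, 135 and 116 CPM in the Cre control and 104, 138 and 129 in the Mib1 mutant. The mutant pools held both the lowest and the highest value, and the log2 fold change was 0.03 (SE 0.10, edgeR adjusted p 0.945). Its partner Ccnb1 (ENSMUSG00000041431) stood at 142, 153 and 145 CPM against 132, 155 and 150, again with replicate 1 lowest, and differed by -0.01 (SE 0.08). Ccnb2, Ccna2 and Foxm1, the transcription factor of this programme, differed by 0.04, -0.07 and -0.01.

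The 3 fold changes of largest size were those of mitotic kinases. Aurka (ENSMUSG00000027496), the aurora kinase of the centrosome and spindle poles, stood at 48.3, 46.1 and 48.1 CPM in the Cre control and 51.3, 55.8 and 51.6 in the Mib1 mutant. The groups did not overlap, and the log2 fold change was 0.16 (SE 0.07, edgeR adjusted p 0.339). Nek2 (ENSMUSG00000026622), a kinase that separates centrosomes, stood at 46.6, 43.8 and 46.1 CPM against 54.2, 46.9 and 52.2. The lowest mutant pool was only just above the highest control pool, and the log2 fold change was 0.17 (SE 0.08, edgeR adjusted p 0.336). Pbk (ENSMUSG00000022033), a mitotic kinase of the MAPKK family, went the other way, at 47.3, 48.1 and 44.7 CPM against 38, 41.9 and 43.3. Its log2 fold change was -0.18 (SE 0.09, edgeR adjusted p 0.372). Plk1 (ENSMUSG00000030867), at 56.2, 64.4 and 62.1 CPM against 54.8, 71.7 and 62.6, differed by 0.05, and its pools overlapped. So the 4 kinases did not share a direction.

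Tpx2 (ENSMUSG00000027469), which activates Aurora A on spindle microtubules, had the smallest p of the 33. It stood at 109, 115 and 113 CPM in the Cre control and 122, 121 and 128 in the Mib1 mutant, and the groups did not overlap. Its log2 fold change was 0.14 (SE 0.06, edgeR adjusted p 0.33). Without Mib1 mutant replicate 3 or Cre control replicate 1 it was 0.11 and 0.12. The other spindle motors and microtubule proteins were close to 0, from -0.04 for the depolymerising kinesin Kif2c to 0.05 for Kif4, with Kif11, Nusap1 and Hmmr between them. The 5 checkpoint and APC/C genes lay between -0.08 (Ube2c) and 0.07 (Ttk), with Bub1, Bub1b and Cdc20 between them.

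Genes of the centromere and the passenger complex were split. The kinetochore proteins Cenpe and Cenpf differed by 0.14 and 0.11. The centromeric histone gene Cenpa differed by -0.15, and Aurkb, Birc5 and Cdca8 of the passenger complex by -0.06, -0.03 and -0.10. The 5 cytokinesis genes were all on the positive side, at 0.14 for Kif20a, 0.12 for Ect2, 0.07 for Kif23 and Anln and 0.02 for Prc1, and none passed. Mki67 (ENSMUSG00000031004), the gene of the proliferation marker Ki-67, stood at 427, 427 and 426 CPM in the Cre control and 364, 432 and 439 in the Mib1 mutant. Its Cre control pools were nearly identical, replicate 1 of the mutant was low and the other 2 were above all controls, giving -0.05 (SE 0.08). Top2a differed by 0.05.

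The median over the 33 genes took the sign of the pools included. Without Mib1 mutant replicate 1 it was 0.068, without Mib1 mutant replicate 3 -0.020 and without Cre control replicate 1 -0.0037. Without both pools with Xist near 0, an alternative chosen after seeing the data, it was 0.038. No gene of the list passed in any of these fits.

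The second comparison asks the same of the triple heterozygote against WT. None of the 33 genes passed here either, where 0.0215% of all genes did (3 of 13964). The 18 positive and 15 negative fold changes had a median of 0.017, beside 0 over all genes, of which 49.9% were positive, and ran from -0.15 to 0.24. Every 95% interval lay within 1.5-fold, the widest reaching 1.27-fold lower (Ect2) and 1.37-fold higher (Plk1). The smallest edgeR adjusted p was 0.565. At an unadjusted p under 0.05, 2 genes were higher and 0 lower, against 3.82% and 4.84% of all genes. DESeq2 called 0 with 2 at an unadjusted p under 0.05, and limma-voom 0 with 1. The groups did not overlap for 3 genes on the higher side (Cdk1, Aurka and Cdca8) and 0 on the lower, against 7.68% and 9.19% of all genes.

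Plk1, the polo kinase of mitotic entry and spindle assembly, had the smallest p. It stood at 62.3, 52.6 and 59 CPM in WT and 68.6, 73.9 and 62.1 in the triple heterozygote, and 1 heterozygote pool was just below the highest WT pool. The log2 fold change was 0.24 (SE 0.10, edgeR adjusted p 0.565). Ube2c (ENSMUSG00000001403) stood at 109, 108 and 115 CPM against 139, 135 and 113. Replicates 1 and 2 were high and replicate 3 was within the WT range, and the log2 fold change was 0.22 (SE 0.10, edgeR adjusted p 0.574). Its partner Cdc20 (ENSMUSG00000006398) had the same shape, at 68.9, 73.3 and 72.1 CPM against 80.4, 83.6 and 70.5, and differed by 0.13 (SE 0.08, edgeR adjusted p 0.62). Cenpe (ENSMUSG00000045328), the kinetochore motor, went the other way, at 115, 93.4 and 104 CPM against 101, 82.8 and 98.7. Its groups overlapped, and it differed by -0.15 (SE 0.09, edgeR adjusted p 0.63).

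Cdk1 stood at 117, 114 and 118 CPM in WT and 135, 125 and 121 in the triple heterozygote. All 3 heterozygote pools were above WT, by a log2 fold change of 0.13 (SE 0.10, edgeR adjusted p 0.687). Ccnb1 stood at 156, 144 and 143 CPM against 162, 141 and 133, and Mki67 at 413, 375 and 400 against 409, 368 and 404. Both overlapped throughout and differed by -0.02 and -0.01. Aurka was at 47.3, 48.8 and 51 CPM against 56.2, 51.4 and 51.8, differing by 0.11 (SE 0.07). Foxm1 differed by 0.12, Ccnb2 by 0.08 and Ccna2 by 0.03. In the passenger complex Cdca8, Birc5 and Aurkb differed by 0.14, 0.09 and 0.08, and Cenpa by 0.11. On the negative side stood Ect2 at -0.12, Cenpf at -0.09, Anln and Kif4 at -0.08, Bub1 and Prc1 at -0.07, Kif11 at -0.06, Hmmr at -0.05 and Nek2 at -0.04. The other 9 genes, Kif2c, Kif20a, Tpx2, Ttk, Pbk, Kif23, Bub1b, Top2a and Nusap1, lay between -0.01 and 0.07.

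The sign of this median, too, depended on the pools included. Without triple heterozygote replicate 1, the highest of the 12 pools, the median over the 33 genes was -0.042. Without WT replicate 1, the second highest, it was 0.052, and without WT replicate 2 it was -0.0023.

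**Figure D4:**
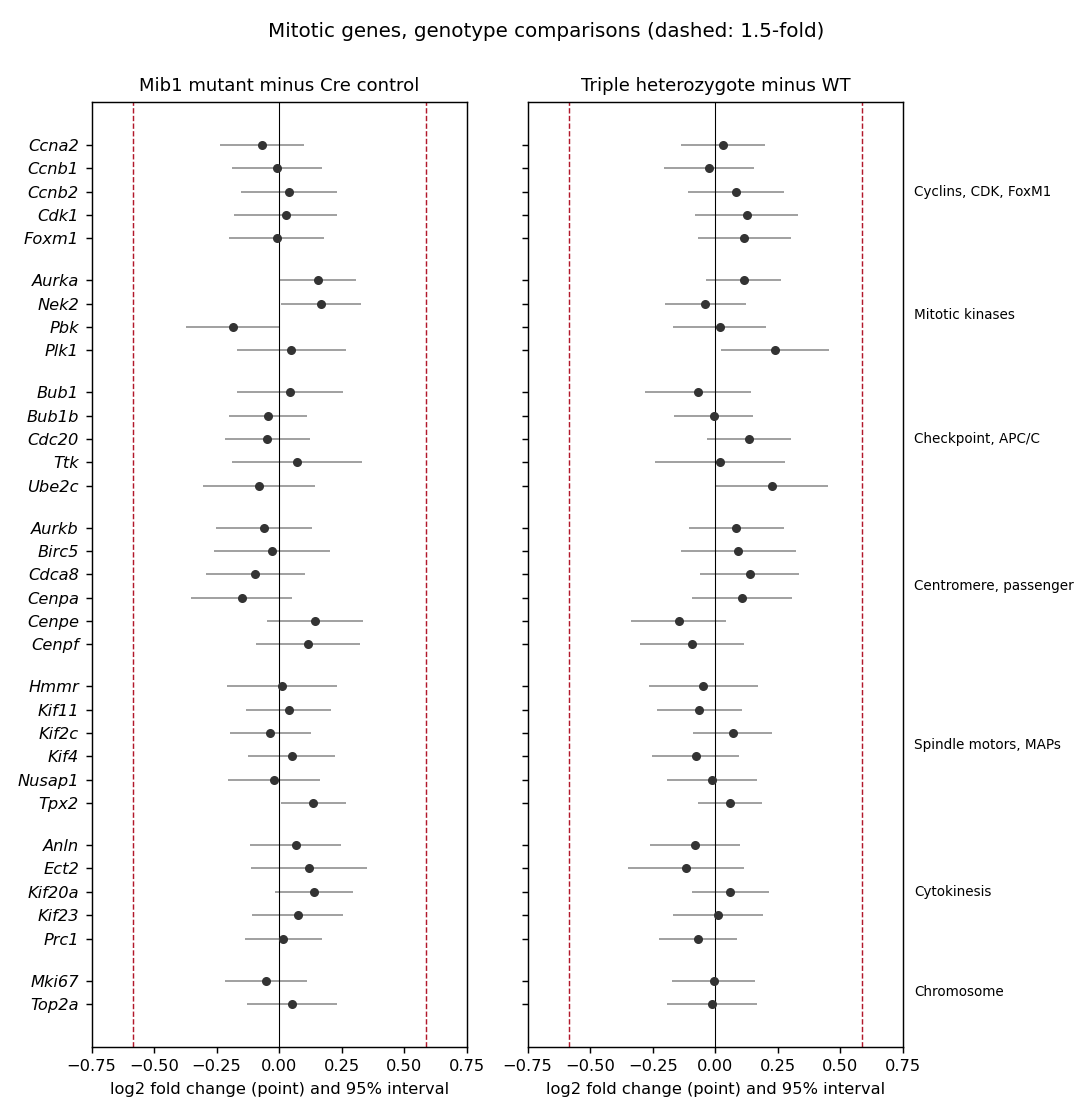
Log2 fold change (points) with 95% intervals (bars) of each of the 33 genes, grouped by role, for the Mib1 mutant minus the Cre control (left) and the triple heterozygote minus WT (right); dashed lines mark 1.5-fold. All intervals lie inside the dashed lines in both panels, with the widest reaching 1.29-fold and 1.37-fold.

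Within the list the fold changes went with exonic length, most clearly in the triple heterozygote against WT, in a split chosen after the values were seen. This length covers all annotated exons of a gene and can exceed that of the transcript made. The median exonic length of the 33 genes was 4677 bases (Tpx2). In the triple heterozygote against WT the 16 shorter genes had a median of 0.06, with 11 positive, and the 16 longer genes a median of -0.03, with 6 positive. All tested genes split at the same length had medians of 0.05 and -0.05. Across genes, Spearman's rho of fold change with length was -0.56 over the 33 genes and -0.35 over 13807 genes with a length. Genes share the libraries and are not independent, so these are descriptions. Between Mib1 mutant and Cre control the sign was opposite, with medians of -0.02 (6 positive) and 0.04 (12 positive) and a rho of 0.29. Nek2 and Aurka, with the largest positive fold changes there (0.17 and 0.16), are among the shorter genes and went against that trend. Over all genes the medians were -0.03 and 0.04 and the rho 0.23. Plk1, Ube2c and Cdc20, with fold changes of 0.24, 0.22 and 0.13 in the triple heterozygote, are among the shorter genes, and Cenpe, Cenpf and Anln are among the longer. Between Cre control and WT, which shares the WT pools with the triple heterozygote comparison, the rho was also negative, at -0.48 over the 33 genes and -0.27 over all genes. The medians there were -0.0068 (7 positive) and -0.053 (6 positive), beside 0.036 and -0.042 over all genes. A split by length is thus present in all tested genes in these 3 comparisons, and its part in the values of single mitotic genes was not tested.

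**Figure D5:**
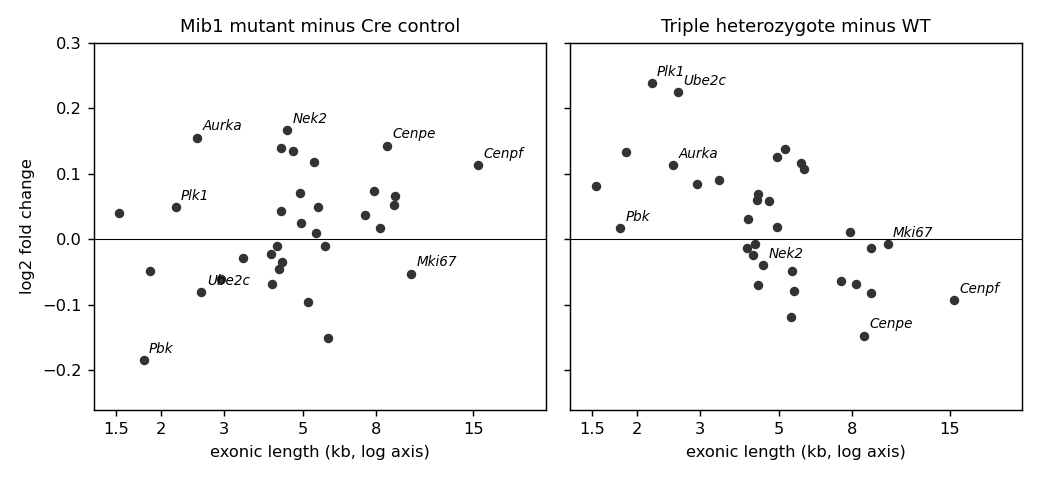
Log2 fold change of each of the 33 genes against its exonic length (log axis, kb), for the Mib1 mutant minus the Cre control (left) and the triple heterozygote minus WT (right). In the right panel short genes such as Plk1 and Ube2c are positive and long genes such as Cenpe and Cenpf negative. In the left panel Cenpe and Cenpf are positive and Pbk and Ube2c negative, while Aurka and Nek2, also among the shorter genes, are positive.

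The difference between the 2 genotype effects was tested in the same fit. None of the 33 genes passed, against 0.516% of all genes (72 of 13964), and the smallest edgeR adjusted p was 0.336. At an unadjusted p under 0.05, 1 gene was higher and 0 lower, against 7.63% and 6.16% of all genes. DESeq2 and limma-voom called 0, with 2 and 1 at an unadjusted p under 0.05. The median difference was 0.013, beside -0.0019 over all genes, with 17 positive and 16 negative. Of all genes 49.7% were positive. The 1 gene was Cenpe, positive in the Mib1 mutant and negative in the triple heterozygote, with a difference of 0.29 (SE 0.13, edgeR adjusted p 0.336). Ube2c had the largest difference of the opposite sign, -0.31 (SE 0.15, edgeR adjusted p 0.375). Its interval alone reached past 1.5-fold, to 1.54-fold. All 5 cytokinesis genes were on the positive side, from 0.06 to 0.24, and none passed. Without triple heterozygote replicate 1 the median over the 33 genes was 0.088.

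The Cre control and WT differ in the driver and the loxP-flanked allele, through which 1 Mib1 copy can be lost in cardiomyocytes. Any difference of line or breeding cannot be told apart from these. Mib1 itself differed by a log2 fold change of -0.37 (SE 0.09, edgeR adjusted p 0.15), and all Cre control pools were below WT. None of the 33 genes passed, against 0.279% of all genes (39 of 13964), and the smallest edgeR adjusted p was 0.645. By edgeR and by DESeq2 and limma-voom, 0 had an unadjusted p under 0.05, against 4.24% higher and 4.2% lower of all genes by edgeR. The median was -0.011, beside -0.0013 over all genes, with 13 positive and 20 negative. Of all genes 49.6% were positive. Pools did not overlap for 3 genes higher in the Cre control (Mki67, Aurkb and Kif2c) and for 2 lower (Anln and Hmmr), against 8.92% and 10.2% of all genes. The smallest p belonged to Cenpe, which at 92, 89.3 and 96.2 CPM in the Cre control and the WT values given above differed by -0.17 (SE 0.09, edgeR adjusted p 0.645). Anln (ENSMUSG00000036777), the anillin scaffold of the cleavage furrow, stood at 210, 179 and 185 CPM in WT and 172, 170 and 176 in the Cre control, differing by -0.15 (SE 0.08). Hmmr (ENSMUSG00000020330), a spindle and hyaluronan-binding protein, stood at 144, 119 and 118 CPM against 115, 112 and 114 and differed by -0.16 (SE 0.10). Kif11 (ENSMUSG00000012443), the motor that keeps spindle poles apart, stood at 187, 161 and 167 CPM against 153, 159 and 161 and differed by -0.12 (SE 0.08). In Anln, Hmmr and Kif11 WT replicate 1 stood well above the other WT pools. Without WT replicate 1 the median over the 33 genes was 0.026.

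Other genes of the cell cycle were read from lists beside these. Of 60 other mitotic genes, 0 passed in either genotype comparison. Their medians were -0.0006 in the Mib1 mutant, with 30 positive and 30 negative, and 0.03 in the triple heterozygote, with 35 positive and 25 negative. Of all genes 51.2% and 49.9% were positive. In the triple heterozygote 9 did not overlap on the higher side and 1 on the lower, against 7.68% and 9.19% of all genes. At an unadjusted edgeR p under 0.05 were 4 higher and 0 lower, against 3.82% and 4.84%. In the Mib1 mutant 3 higher and 2 lower did not overlap, against 8.86% and 7.75%. At that p were 1 higher and 0 lower, against 7.34% and 6.65%. The smallest p in the Mib1 mutant belonged to Cdca2, which recruits a phosphatase to anaphase chromosomes. Its pools were at 33.8, 30.6 and 33.7 CPM in the Cre control and 37.3, 39 and 40 in the Mib1 mutant, a log2 fold change of 0.24 (SE 0.07, edgeR adjusted p 0.125). Ska1 and Dlgap5, both of the spindle, followed at -0.24 and 0.14. In the triple heterozygote the smallest p values were those of Cks1b, a CDK-binding subunit, at 0.28, Psrc1 at 0.37 and the kinetochore gene Spc24 at 0.29 (edgeR adjusted p 0.559 to 0.565).

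Genes of the step before, the G1/S transition and DNA replication, were mostly on the positive side in the triple heterozygote and mostly on the negative side in the Mib1 mutant. None of the 34 passed in either comparison. In the triple heterozygote against WT 32 were positive and 2 negative, where 49.9% of all genes were positive, with a median of 0.16. The pools did not overlap for 20 of the 34 on the higher side and 0 on the lower, against 7.68% and 9.19% of all genes. At an unadjusted p under 0.05 were 4 higher and 0 lower, against 3.82% and 4.84% of all genes. Among them were Cdk2 at 0.23, the replication helicase subunit Gins2 at 0.32 and the licensing factor Cdt1 at 0.33 (edgeR adjusted p 0.559 to 0.565). The mean log2 CPM over the 34 genes was 5.75 to 5.79 in the triple heterozygote and 5.59 to 5.64 in WT, so these groups did not overlap. Cre control against the same WT pools had 28 positive and 6 negative of the 34, with a median of 0.058, where 49.6% of all genes were positive. There 6 did not overlap on the higher side and 0 on the lower, against 8.92% and 10.2% of all genes, and 0 passed. In the Mib1 mutant 8 were positive and 26 negative, where 51.2% of all genes were positive, with a median of -0.06. Prim1, the primase subunit, differed by -0.27, Gins1 by -0.34 and Dut by -0.17 (edgeR adjusted p 0.281 to 0.465). The mean log2 CPM was 5.30 in Mib1 mutant replicate 1 and 5.68 and 5.78 in the other 2 pools, against 5.59 to 5.74 in the Cre control. Prim1 stood at 22.7 CPM in that pool and at 32.3 and 32.7 in the other 2. For the difference between the effects 3 of the 34 were positive and 31 negative, where 49.7% of all genes were positive, the median was -0.23 and 0 passed. By edgeR 5 were lower and 0 higher at an unadjusted p under 0.05, against 6.16% and 7.63% of all genes.

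None of the listed regulators of the mitotic genes passed. Of 17 genes of the DREAM, B-MYB and RB complexes, 0 passed, and the medians were 0.02 in the Mib1 mutant and -0.03 in the triple heterozygote. Those with the smallest p were Rbl1 at -0.14, Nfyc at -0.13 and Mybl1 at -0.17 in the Mib1 mutant, and Tfdp2 at -0.17, Rbl2 at -0.13 and Mybl2 (B-MYB) at 0.15 in the triple heterozygote. Of 16 CDK inhibitors, G1 cyclins and p53 genes 14 were tested, and 0 passed. Cdkn1c, the CDK inhibitor p57, stood at 211, 222 and 236 CPM in WT and 268, 303 and 293 in the triple heterozygote. The groups were well apart, and the log2 fold change was 0.37 (SE 0.09, edgeR adjusted p 0.326). Cdkn1c passed with DESeq2 (adjusted p 0.00899) and with no filter on low counts (edgeR adjusted p 0.0254). Trp53 and Ccng1 differed by 0.27 and -0.21 in the triple heterozygote. In the Mib1 mutant Cdkn2d, Ccng1 and Cdk6 differed by -0.26, -0.16 and 0.38.

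Of the markers of other cell types, 2 erythroid genes passed in the triple heterozygote and 2 leukocyte genes in the Mib1 mutant. The part of any marker list in the mitotic values was not tested. Of 16 erythroid genes 12 were tested, and all 12 had positive fold changes in the triple heterozygote against WT, with a median of 0.58. Their summed level was 7190 to 8410 CPM in the triple heterozygote and 4420 to 5190 in WT, 4490 to 5150 in the Cre control and 3590 to 4900 in the Mib1 mutant. Only the alpha globins Hba-a1 and Hba-a2, which share reads, rose past the threshold (0.76 and 0.80, edgeR adjusted p 0.0351 and 0.0189). Gata1 and Klf1, transcription factors of red cell precursors, did not pass the filter on low counts, with at most 0.483 and 0.674 CPM in a pool. Alas2, the haem synthesis gene of red cell precursors, had means of 48.4 CPM in WT and 69.9 in the triple heterozygote. Whether any of these transcripts came from dividing cells was not tested. Of 13 leukocyte markers 11 had negative fold changes between Mib1 mutant and Cre control, with a median of -0.52 and sums of 77.1 to 106 against 110 to 138 CPM. C1qb and Lyz2, macrophage genes, fell by 0.61 and 1.02 (edgeR adjusted p 0.0288 and 0.00454). Of 12 cardiomyocyte markers 10 had negative fold changes in the Mib1 mutant (42300 to 51700 CPM summed, against 52000 to 57700) and 0 passed. All 8 fibroblast markers had positive fold changes there, with a median of 0.23, sums of 4710 to 5850 against 4300 to 4370 CPM, and 0 passed. None of these 4 lists held a mitotic gene. Of the marker lists not described, liver markers summed to 23.2 CPM in WT replicate 2 and to at most 5.29 CPM in any other pool. None of them passed in either genotype comparison.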

How the data were processed

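Per the labels' protocols, polyA RNA of E15.5 mouse ventricles was made into strand-specific libraries and read from 1 end over 60 bases. The deposited values are RSEM expected counts from the authors, of which 9.64% were not whole, since RSEM divides reads that match several genes. Tools named in the submitters' processing notes are RSEM, limma, cutadapt and bcl2fastq 2.20.0.422, with the build GRCm38. No aligner or annotation release is given in the sources used here. The alpha globin pair is uncertain because its reads are divided. All 12 columns were used and 0 left out. The columns called mutant were taken for the triple heterozygote because their names hold neither flox nor Cre, an inference from names. Of 38293 identifiers 36429 were in GENCODE M21, which gave symbols and exonic lengths; 15719 had no read.

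After rounding, edgeR 4.0.16 (R 4.3.3) gave two-sided quasi-likelihood F tests with TMM and filterByExpr, over 13964 genes holding 99.9% of counts. The fit used the 4 genotypes and all 12 libraries, which leaves 8 residual degrees of freedom, and the common coefficient of variation was 0.0982. Benjamini-Hochberg adjustment ran over all tested genes, with a threshold of 0.05. Intervals are 95%; the SE is the log2 fold change over the square root of F. Mean log2 CPM used a prior count of 2. The chi-square per degree of freedom between replicates was 2.05 to 13.2, above sampling noise, and no library was treated as a duplicate. Precision depends on 10103548 to 22157720 reads per library.

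The 33 genes and the other lists were chosen with earlier results of these data known. Pool values are given for Cdk1, Ccnb1, Mki67 and the 4 genes with the smallest p in each comparison of 2 groups, and from each pathway list up to 3 with the smallest p. Alternatives were other size factors, filters, DESeq2 1.42.0, limma-voom 3.58.1, fewer libraries, erythroid genes left out, a sex covariate, a replicate block and each replicate left out. The procedure was tested on simulated data, in each comparison of 2 groups. Of genes given a log2 change of 0.5, 52.2% to 58.2% were recovered, and of those given 1, 85.1% to 92.5%. Between 7 and 16 unchanged genes passed. Smaller changes were not simulated. The changed genes were not matched to the 33 in level, and genes were simulated independently, with no shift shared within a pool. The recovered shares are therefore not those of the 33 genes.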

Additional observations from a re-analysis of the deposited data

Results flagged for a closer look

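For the difference between the effects of the 2 genotypes, 5 genes of the erythroid list passed edgeR's test of that difference. They were Hba-a1 (-0.93, SE 0.16, adjusted p 0.0184), Hba-a2 (-1.03, SE 0.15, 0.00658), Hbb-bs (-0.76, SE 0.15, 0.0306), Hbb-bt (-0.87, SE 0.17, 0.0381) and Alas2 (-0.90, SE 0.18, 0.035). Each was positive in the triple heterozygote against WT and negative between Mib1 mutant and Cre control. From the leukocyte list 1 gene passed the same test, Lyz2 (-1.20, SE 0.23, edgeR adjusted p 0.0301).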

How the results depend on the processing

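None of the 33 mitotic genes passed in any of the 4 contrasts under any of the 20 to 22 alternatives run for each. The number at an unadjusted p under 0.05 ran from 0 to 4 in the Mib1 mutant comparison, 0 to 3 in the triple heterozygote comparison, 0 to 5 for the difference between effects and 0 to 1 between controls. Leaving out each replicate in turn moved the median log2 fold change of the 33 genes between -0.020 and 0.068, -0.042 and 0.065, -0.032 and 0.088, and -0.044 and 0.026 in the same order. The value of 0.088 came without triple heterozygote replicate 1. With the sex covariate the medians were 0.038, 0.0095, 0.034 and 0.0018 in the same order, beside 0.025, 0.017, 0.013 and -0.011 in the main fit. For the members named with pool values, 24 of 448 values under the alternatives changed sign, all of them of Mki67, Ccnb1 or Cdk1.

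Counts of all genes called changed more. In the order above they were 210, 3, 72 and 39, and became 484, 54, 249 and 144 with no filter on low counts and 417, 22, 167 and 82 with DESeq2. In fits of only the libraries compared they were 93 and 10 for the genotypes and 68 between controls. In the triple heterozygote comparison the count was 1 with erythroid genes left out and 5 with the sex covariate. Leaving out 1 replicate gave 116 to 415, 1 to 6, 28 to 233 and 23 to 46, and leaving out both pools with Xist near 0 gave 110 in the Mib1 mutant comparison; the causes were not tested.

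With the replicate number as a block, 318 genes passed in the Mib1 mutant comparison, 109 for the difference and 59 between controls, and 0 of the 33 in each. Same-numbered pools correlated by 0.125, 0.166 and 0.0142 in their deviations in the first comparison, 0.0914, -0.0065 and -0.0615 in the second and 0.0621, 0.0598 and -0.0892 between controls, and in no comparison did every pool correlate best with its own number.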
